A study of Mus musculus with 6 samples.

Results

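To describe H3K9me3 over the zinc finger protein (Zfp) genes, the regions of the deposited CUT&Tag tables whose assigned gene name was Zfp followed by a digit were taken from chromosomes 1 to 19. They were 914 of 57177 autosomal regions and belonged to 302 of 20289 named autosomal genes. H3K9me3, trimethylated lysine 9 of histone H3, was profiled in bone marrow endothelial progenitor cells (EPCs) of C57BL/6J mice aged 8 weeks, sorted magnetically for Sca-1 and CD31 and cultured in EGM-2 medium. The groups were cells of male mice (M-EPC), of intact female mice (F-EPC) and of females ovariectomized by the supplier at about 35 days of age (OVX-EPC), with 2 libraries in each group. The sources describe duplicate vials of cells and do not say that the 2 libraries came from separate animals, so the p-values measure the spread between these libraries only, which may be technical.

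Most Zfp genes encode C2H2 zinc finger proteins, in which tandem fingers, each folded around a zinc ion, read DNA. Many also carry a KRAB domain, which binds the corepressor TRIM28 (KAP1) and through it the H3K9 methyltransferase SETDB1 and HP1 proteins. Such proteins are known for silencing transposable elements, and their genes lie in tandem clusters that carry H3K9me3 themselves, above all over the exons that encode the finger arrays. Other Zfp genes have neither a KRAB domain nor a place in a cluster, so the name covers proteins of several kinds.

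Region names come from the nearest transcription start site and are not always the gene under the region. Of the 914 regions, 207 overlapped coding sequence (GENCODE M21), which belonged to the assigned gene in 181 regions, to another Zfp gene in 18 and to a gene of another name in 8. The last coding exon, which usually encodes the fingers, held at least 200 bases of 110 regions in 95 genes. The next lines show the repeated finger units of these exons. They give 300 coding bases under each of 4 strong regions, each of a different gene. Each region holds at least 300 bases of such an exon and at least 1 match to the linker searched for, so the match was a condition of the choice. The 4 were the strongest such regions on the chromosomes considered, which were not all of the autosomes. A stronger Zfp110 region (chr7:12849577-12849976) had no match and is not shown. The sequences run 5′ to 3′ on the coding strand (GRCm38, the build of the files), with capitals marking the codons of the conserved linker peptide that joins neighbouring fingers.
Zfp810, chr9:22278595-22278894, minus strand: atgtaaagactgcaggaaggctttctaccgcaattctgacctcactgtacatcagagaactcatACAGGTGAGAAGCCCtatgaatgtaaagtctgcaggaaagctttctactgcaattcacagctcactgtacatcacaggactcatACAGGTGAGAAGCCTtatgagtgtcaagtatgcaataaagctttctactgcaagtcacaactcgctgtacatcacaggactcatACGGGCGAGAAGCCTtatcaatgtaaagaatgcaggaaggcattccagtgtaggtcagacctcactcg
Zfp873, chr10:82060973-82061272, plus strand: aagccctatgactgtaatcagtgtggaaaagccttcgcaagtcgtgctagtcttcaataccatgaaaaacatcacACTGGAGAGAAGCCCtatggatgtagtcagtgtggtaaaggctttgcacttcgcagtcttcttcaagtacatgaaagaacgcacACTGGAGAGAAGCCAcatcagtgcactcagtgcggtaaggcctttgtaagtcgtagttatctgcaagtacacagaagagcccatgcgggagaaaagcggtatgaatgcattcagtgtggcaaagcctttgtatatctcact
Zfp27, chr7:29894548-29894847, minus strand: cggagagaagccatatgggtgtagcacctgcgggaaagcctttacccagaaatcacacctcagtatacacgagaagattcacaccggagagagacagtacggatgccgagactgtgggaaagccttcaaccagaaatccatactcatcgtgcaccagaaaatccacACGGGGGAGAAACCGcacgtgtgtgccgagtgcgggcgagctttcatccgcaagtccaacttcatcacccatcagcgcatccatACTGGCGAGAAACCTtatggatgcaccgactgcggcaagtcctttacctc
Zfp2, chr11:50900721-50901020, minus strand: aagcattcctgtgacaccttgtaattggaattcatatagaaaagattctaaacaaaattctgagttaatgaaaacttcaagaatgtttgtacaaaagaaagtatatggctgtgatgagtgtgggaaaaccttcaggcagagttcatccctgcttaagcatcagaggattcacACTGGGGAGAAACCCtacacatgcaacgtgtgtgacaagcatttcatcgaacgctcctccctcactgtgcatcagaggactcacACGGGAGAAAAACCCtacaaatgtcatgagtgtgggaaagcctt

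The linker, searched as ACNGGNGANAANCCN on both strands, was found in 77 of the 110 regions of last coding exons. It was found in 95 of all 914 Zfp regions (10.4%) and in 243 of all 57177 autosomal regions (0.425%). In Zfp regions with several matches, 96 of 132 neighbouring matches were 84 bases apart, the length of 28 codons and of 1 finger with its linker. The 95 Zfp regions with a match held a mean of 37.8 reads, compared with 18.1 in the 819 without one. The region over the Zfp810 exon above, which the files assign to Zfp599, held 193 and 206 reads (M-EPC) against 149 and 186 (OVX-EPC). The Zfp873 region held 106 and 89 reads (M-EPC), 99 and 101 (F-EPC) and 90 and 101 (OVX-EPC), so the groups overlapped. The Zfp27 region held 95 and 85 reads (M-EPC) against 72 and 84 (OVX-EPC). The Zfp2 region held 64 and 86 reads (M-EPC), 102 and 87 (F-EPC) and 65 and 96 (OVX-EPC). Values given as reads, here and below, are not scaled for library depth, which differed between groups. Scaled by the authors and summed over the 2 regions of Zfp2, signal was 87.5 and 92.2 (M-EPC) against 91.8 and 91.3 (F-EPC).

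Of the 302 genes, 106 had 1 region, 128 had 2 to 4, and 68 had 5 or more, up to 17 for Zfp994. Regions were 400 bases wide in 906 of 914 cases. The 4 libraries of M-EPC and OVX-EPC held 489207 to 566265 autosomal region reads each. The F-EPC libraries held reads over part of the genome only, since in the order of the tables F-EPC replicate 1 had no read past the first part of chromosome 16. All values of F-EPC in comparisons therefore come from chromosomes 1 and 10 to 15 and the start of chromosome 16, where 236 of the Zfp regions, in 75 genes, lie. Over that part F-EPC libraries held 288353 and 252356 reads, M-EPC 200296 and 235301, and OVX-EPC 209015 and 223313. H3K9me3 is no measure of expression, so the cell type could not be checked on its markers, of which Pecam1 (4 regions) and Cdh5 (15) had regions and Ly6a, which encodes Sca-1, had 0.

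Zfp regions carried more H3K9me3 reads than other regions in each library. Zfp regions averaged 17.0 to 22.6 reads in the 4 M-EPC and OVX-EPC libraries and other autosomal regions 8.42 to 9.70, a ratio of 2.02 to 2.47 within a library. Over the chromosomes with F-EPC reads the ratio ran from 1.84 to 2.68 in the 6 libraries. Among the 1000 autosomal regions with the highest mean reads 132 were Zfp regions (13.2%), against 1.60% of all autosomal regions. Other families with C2H2 fingers had lower means, with 8.15 to 10.96 reads per region in Zscan (26 regions), 11.6 to 14.7 in Zkscan (14), 10.8 to 13.3 in Zbtb (47) and 11.2 to 17.4 in Klf (30). By the median region the Klf family, at 12.4 reads, was close to the Zfp genes, at 13, while other autosomal regions were at 6.25. Families of clustered receptor genes that are silent outside sensory neurons had 5.02 to 8.17 reads in Olfr (726 regions) and 6.44 to 9.87 in Vmn1r and Vmn2r (215). Olfr was the lowest of all these sets in each library. Vmn1r and Vmn2r were above Zscan in OVX-EPC replicate 1 (8.61 against 8.15) and above other autosomal regions in both OVX-EPC libraries. These levels are descriptions without a test, as regions of 1 library are not replicates.

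**Figure D1:**
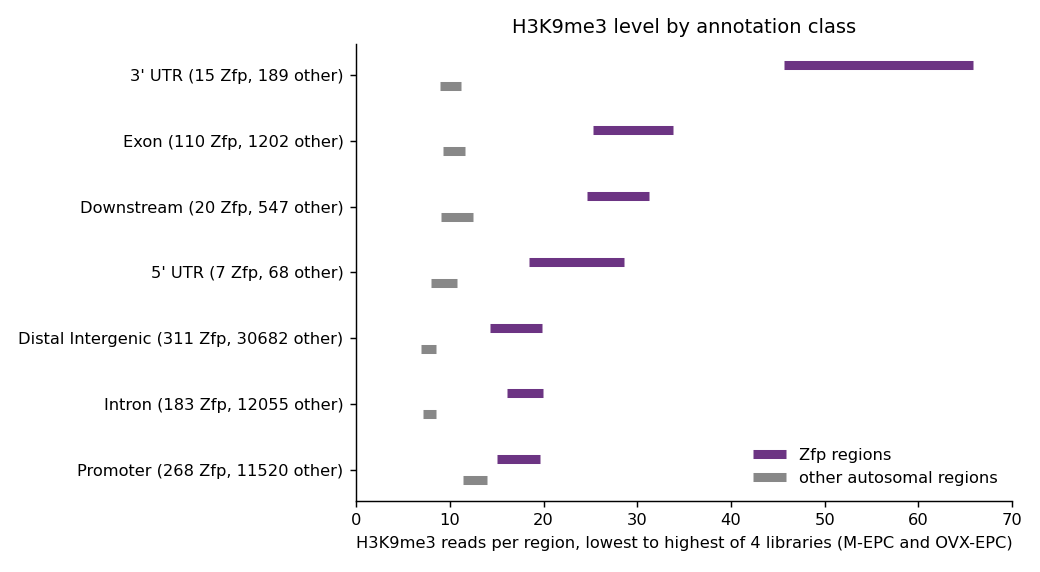
H3K9me3 reads per region by annotation class, for Zfp regions and other autosomal regions; each bar runs from the lowest to the highest of the 4 M-EPC and OVX-EPC libraries. Zfp exon regions ran from 25.2 to 33.9 reads and other exon regions from 9.32 to 11.7.

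The excess differed with where in the gene a region lay. The authors' annotation placed 268 Zfp regions (29.3%) in promoters, 311 (34.0%) in distal intergenic sequence, 183 (20.02%) in introns and 110 (12.04%) in exons, compared with 20.48%, 54.5%, 21.4% and 2.14% of other autosomal regions. Within 1 kb of a start site, Zfp promoters averaged 1.13 to 1.22 times the reads of other promoters in the M-EPC and OVX-EPC libraries. Over the chromosomes with F-EPC reads this ratio ran from 0.989 to 1.205 in the 6 libraries. In the M-EPC and OVX-EPC libraries over all autosomes, the ratio at 2 to 3 kb was 2.23 to 2.50. In introns it was 2.25 to 2.58 and in exons 2.71 to 3.03. The 15 regions annotated as 3′ UTR had the highest ratio, 5.10 to 6.24, with 45.7 to 65.9 reads per region against 8.96 to 11.2. Regions in last coding exons of Zfp genes, under any assigned name, averaged 26.6 to 36.8 reads (145 regions), and those in last coding exons of other genes 9.96 to 12.2 (452 regions). The plot of reads by annotation class shows the ranges of Zfp and other regions apart in each of 7 classes.

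The strongest member was a region annotated as 3′ UTR and assigned to Zfp112 (chr7:24105844-24106243), of which 279 bases lie in the last coding exon of the neighbouring Zfp180. It held 256 and 242 reads (M-EPC) against 196 and 201 (OVX-EPC), so both M-EPC libraries were higher. Next came the Zfp810 exon region described above. An intergenic region assigned to Zfp825 (chr13:74529135-74529534) held 196 and 113 reads (M-EPC), 151 and 133 (F-EPC) and 92 and 120 (OVX-EPC). An intergenic region of Zfp951 (chr5:104879925-104880324) held 142 and 128 reads (M-EPC) against 89 and 133 (OVX-EPC). The other 6 of the 10 strongest were 2 regions of Zfp112, 2 of Zfp110, which encodes an interactor of the neurotrophin receptor p75, and 1 each of Zfp873 and Zfp369. Per gene, summed over regions, the highest mean reads were 624 in Zfp951, 580 in Zfp873, 513 in Zfp112, 435 in Zfp599, 407 in Zfp110 and 395 in Zfp994, followed by Zfp125, Zfp825, Zfp936 and Zfp146 with 288 to 357.

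A few genes were looked up for their known roles. Zfp809, which silences integrated murine leukaemia viruses, had 2 regions with 30 and 37 reads (M-EPC) against 28 and 27 (OVX-EPC). Zfp568, a KRAB protein that represses a placental Igf2 promoter, had 2 regions with 17 and 22 reads (M-EPC) against 16 and 11 (OVX-EPC). Zfp42 (Rex1), a pluripotency marker, and Zfp57, which protects methylation of imprinted loci, had 0 regions.

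The Zfp regions formed 25 clusters of at least 3 genes with gaps of at most 1 Mb, holding 557 regions in 185 genes. Regions in clusters had a median of 16.3 reads and the 357 outside 9.50 (means over the M-EPC and OVX-EPC libraries). Chromosome 7 held the most, with 167 regions in 70 genes, then chromosome 17 with 159 and chromosome 13 with 116. The largest cluster lay on chromosome 17 (chr17:21008881-23599294, 94 regions in 22 genes), with Zfp994 as its strongest gene. The next was on chromosome 13 (chr13:66638020-67817998, 73 regions in 21 genes), with Zfp712 strongest. This stretch is known as the regulator of sex-limitation locus, where KRAB zinc finger genes repress genes of male-predominant expression in mouse liver. Signal per region differed between clusters, from 7.98 reads in the chromosome 7 cluster led by Zfp629 to 45.0 in the chromosome 9 cluster led by Zfp599. Other strongest genes were Zfp988 on chromosome 4, Zfp157 on 5, Zfp467 on 6, Zfp146, Zfp936, Zfp110, Zfp112, Zfp850 and Zfp78 on 7, Zfp930 and Zfp709 on 8, Zfp560 on 9, Zfp873 on 10, Zfp2 and Zfp867 on 11, Zfp935 on 13, Zfp647 on 15, Zfp763 and Zfp119b on 17, and Zfp442 and Zfp663 on 2. The 541 regions of other genes that lay inside the clusters averaged 15.98 reads, also above the level of other autosomal regions. Tandem copies are similar in sequence, and the reads were trimmed to 25 bases and those of low mapping quality removed, so levels of close copies are uncertain.

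The share of a library's autosomal region reads that fell in Zfp regions was lower in both female groups than in M-EPC. Over chromosomes 1 to 19 it was 3.85% and 3.64% in the M-EPC libraries and 3.17% and 3.43% in the OVX-EPC libraries, a difference of -0.444 percentage points with a spread between replicates of 0.167 (SD, n = 2). Over the part with F-EPC reads it was 2.31% and 2.11% (M-EPC), 1.64% and 1.60% (F-EPC) and 1.81% and 2.00% (OVX-EPC). F-EPC lay -0.589 points from M-EPC, with a spread of 0.0995. OVX-EPC lay 0.286 points above F-EPC, with a spread of 0.0993. Groups did not overlap in any of the 3 comparisons, which gave p = 0.3333 each in the two-sided exact permutation test, the smallest value 2 libraries against 2 allow. The comparisons share libraries and are not independent. The 95% Wilson interval, which covers counting error only, was 2.24% to 2.37% in M-EPC replicate 1 and 1.59% to 1.69% in F-EPC replicate 1 over the same chromosomes. The share also moved in the same direction over regions outside clusters, over regions with at least 30 in at least 2 libraries and with promoters left out. Over regions with at least 30 the relative differences were smaller. The ratio of shares was 0.954 there against 0.882 in OVX-EPC over M-EPC, and 0.862 against 0.733 in F-EPC over M-EPC. In OVX-EPC over F-EPC it was 1.12 against 1.18.

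**Figure D2:**
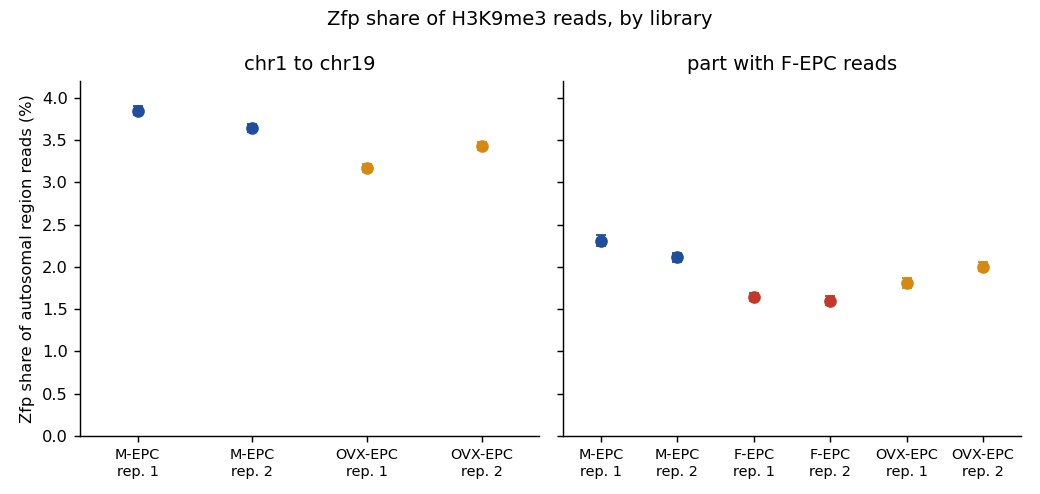
Percentage of autosomal region reads in Zfp regions, 1 dot for each library with its 95% Wilson interval, over chromosomes 1 to 19 (left) and over the part with F-EPC reads (right). On the right the F-EPC libraries, at 1.64% and 1.60%, lie below all others.

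F-EPC were compared with M-EPC to ask for a difference between male cells and those of intact females. Called Zfp genes were lower in F-EPC, among them the strongly marked Zfp873 on chromosome 10 and a run of genes on chromosome 13. Per gene, with normalised signal summed over regions, 62 of the 75 genes passed the filter on low values, and 19 were called at an adjusted p under 0.05, all lower in F-EPC. This was 30.6% of those tested, while 6.55% of all 5514 genes tested were called lower and 5.04% higher. Of the 19, 15 are on chromosome 13, which also held 31 of the 62 genes tested. At the level of single regions, 154 of 236 passed the filter and 9 were called, all lower (5.84%), against 1.62% of all regions called lower and 0.172% called higher. Both F-EPC values lay below both M-EPC values in 103 of the 154 (66.9%), compared with 36.0% of all regions tested.

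The values of single genes and regions are the authors' normalised signal, and the tests are limma on log2(value + 1) with Benjamini-Hochberg adjustment over all genes or regions. Zfp873 had 790 and 639 (M-EPC) against 484 and 491 (F-EPC), a log2 fold change of -0.54 ± 0.103 (SE; limma, adjusted p = 3.2e-04). Zfp369, a further interactor of the p75 neurotrophin receptor, had 323 and 249 (M-EPC) against 171 and 181 (F-EPC), with a log2 fold change of -0.69 ± 0.145 (SE; limma, adjusted p = 0.0012). Zfp366 (DC-SCRIPT), a regulator of dendritic cells, had 51.3 and 52.7 (M-EPC) against 24.7 and 15.7 (F-EPC), with a log2 fold change of -1.35 ± 0.289 (SE; limma, adjusted p = 0.0012). In each of these genes both F-EPC libraries lay below both M-EPC libraries. Zfp273 had 83.8 and 62.9 (M-EPC) against 39.9 and 27.7 (F-EPC), a log2 fold change of -1.10. Zfp759 had 138 and 141 (M-EPC) against 82.2 and 76.5 (F-EPC), a log2 fold change of -0.80. Zfp458 had 199 and 199 (M-EPC) against 130 and 124 (F-EPC), a log2 fold change of -0.64. Zfp273, Zfp759 and Zfp458 lie in the chromosome 13 cluster led by Zfp712.

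The other genes called were Zfp708 (log2 fold change -1.58), Zfp39 (-1.13), Zfp65 (-1.03), Zfp874b (-0.93), Zfp85os (-0.82), Zfp748 (-0.75), Zfp729a (-0.74), Zfp729b (-0.67), Zfp867 (-0.67), Zfp935 (-0.63), Zfp825 (-0.55), Zfp712 (-0.44) and Zfp125 (-0.40). The smallest change was thus -0.40 in Zfp125, with 441 and 386 (M-EPC) against 324 and 301 (F-EPC). At least Zfp708, the largest change, passed the filter on low values through its M-EPC libraries alone, as both F-EPC values were below 10. Zfp85os is transcribed from the strand opposite to Zfp85, and CUT&Tag reads do not separate strands. Zfp729a and Zfp729b are near copies of each other. Over all autosomal genes the median log2 fold change was -0.19 as deposited. Scaling by TMM brought it to -0.02, and 10 of the 19 were still called and 0 further Zfp genes were. DESeq2 called 2, Zfp873 and Zfp369, and gave no adjusted p for 5. The number of genes called fell when either F-EPC library was left out. All 19 kept a negative fold change in F-EPC whichever library was left out. That sign could not change, since both F-EPC values lay below both M-EPC values in each of these genes.

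**Figure D3:**
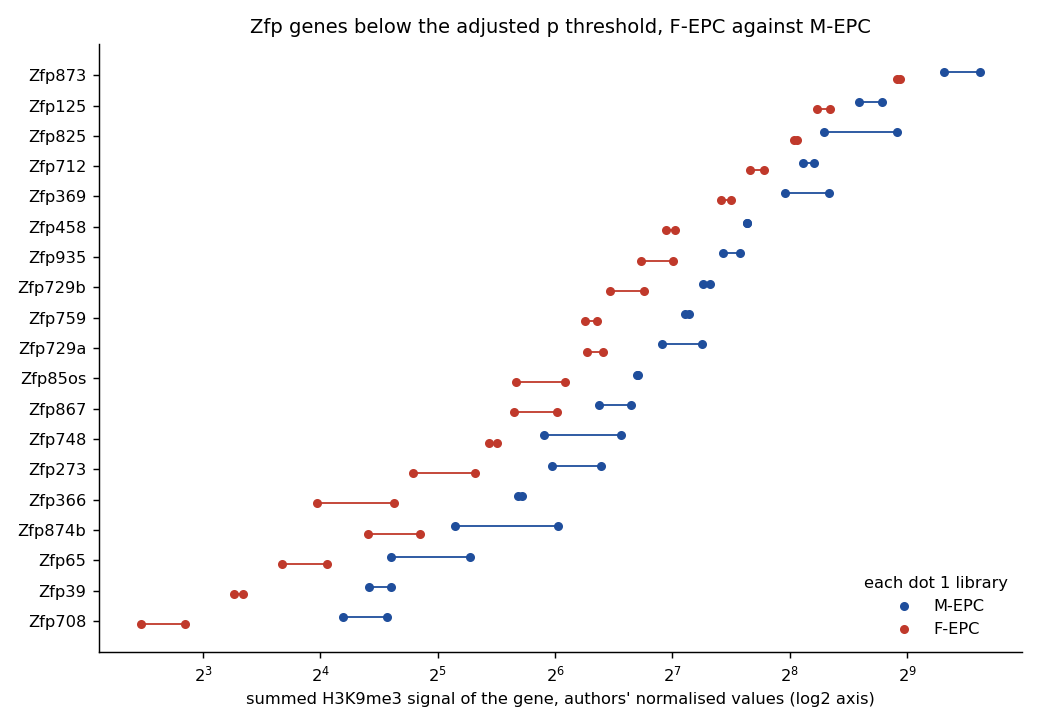
Normalised H3K9me3 signal summed over the regions of each of the 19 Zfp genes called in F-EPC against M-EPC, 1 dot for each library, on a log2 axis. The F-EPC dots lie left of the M-EPC dots in each gene, from Zfp708 (7.18 and 5.53 against 23.8 and 18.2) to Zfp873 (484 and 491 against 790 and 639).

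Among single regions, an intron region assigned to Zfp729a (chr13:67628330-67628729) had 58.8 and 49.7 (M-EPC) against 20.8 and 21.2 (F-EPC), with a log2 fold change of -1.32 ± 0.274 (SE; limma, adjusted p = 0.016). The Zfp369 region annotated as 3′ UTR (chr13:65297466-65297865) had 161 and 105 (M-EPC) against 64.6 and 64.5 (F-EPC), with a log2 fold change of -1.003 (limma, adjusted p = 0.017). An intergenic region assigned to Zfp873 (chr10:82003404-82003803) had 43.8 and 32.4 (M-EPC) against 15.96 and 9.22 (F-EPC), a log2 fold change of -1.56, and a second one (chr10:82009866-82010265) changed by -1.26. The other called regions were assigned to Zfp825 (chr13:74452463-74452862, log2 fold change -1.40), Zfp85os (chr13:67732155-67732554, -1.69), Zfp708 (chr13:67081239-67081638, -1.58), Zfp273 (chr13:67813588-67813987, -1.57) and Zfp759 (chr13:67142366-67142765, -1.03). At least the Zfp708 region passed the filter on low values through its M-EPC libraries alone. By annotation the 9 were 3 promoter, 4 intergenic, 1 intron and 1 3′ UTR region, and 0 of the 26 tested regions of last coding exons were among them. DESeq2 called 0 regions and edgeR 6. With limma the count was 0 without M-EPC replicate 1, 2 without F-EPC replicate 1 and 1 without F-EPC replicate 2. Of the regions higher in F-EPC without overlap, the smallest unadjusted p belonged to an intergenic Zfp735 region (chr11:73678678-73679077), with 8.75 and 15.2 (M-EPC) against 19.2 and 22.1 (F-EPC), with a log2 fold change of 0.78 (limma, adjusted p = 0.21). It was followed by regions of Zfp454 (log2 fold change 0.65), Zfp369 (0.56, chr13:65336506-65336905), Zfp640 (0.62) and Zfp2 (0.71), of which none was called.

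The median log2 fold change of F-EPC against M-EPC was -0.55 over the 154 Zfp regions tested and -0.19 over all 8139 regions tested, with 139 of the 154 below 0. The gap to other regions was smaller at a mean signal of 30 or more. Zfp regions with a mean signal under 15 had a median of -0.64 and other regions -0.09. Between 15 and 30 the medians were -0.63 and -0.29, and between 30 and 60 they were -0.50 and -0.39. At 60 or more, with only 8 Zfp regions, they were -0.33 and -0.18. Promoter regions had medians of -0.58 (Zfp) and -0.40 (other), introns -0.69 and -0.20 and intergenic regions -0.57 and -0.00313. Without M-EPC replicate 1 the Zfp median was -0.42.

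**Figure D4:**
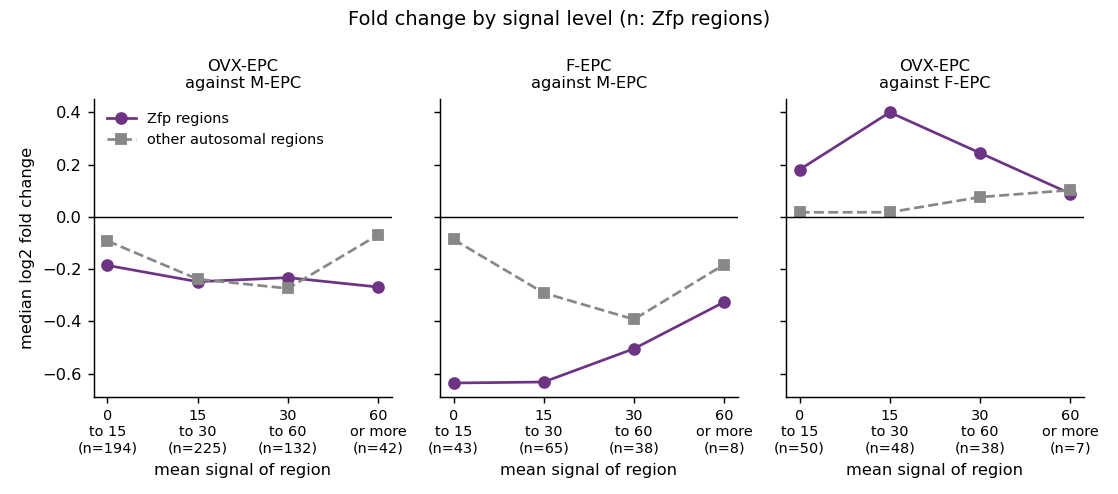
Median log2 fold change of Zfp regions and of other autosomal regions by mean signal of the region, in the 3 comparisons, with the number of Zfp regions under each bin. In F-EPC against M-EPC the Zfp medians (-0.64, -0.63, -0.50 and -0.33) lie below those of other regions in each bin.

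OVX-EPC were set against M-EPC over all autosomes, to ask whether cells of females without ovaries differ from male cells. Calls went both ways, with higher signal at Zfp981 on chromosome 4 and Zfp804a on chromosome 2. Lower signal was called at 6 genes of chromosome 8, among them Zfp709. That chromosome held 20 of the 302 Zfp genes, and with TMM factors these 6 were not called. Of 302 genes 252 passed the filter, and 13 were called lower (5.16%) and 2 higher (0.794%), against 2.29% and 2.36% of all autosomal genes tested. Of 914 regions 593 passed the filter and 1 was called lower (0.169%), against 0.403% of all autosomal regions called lower and 0.0% called higher. Both OVX-EPC values lay below both M-EPC values in 238 of the 593 (40.1%), compared with 31.5% of all autosomal regions tested.

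The lower genes ran from a log2 fold change of -1.36 in Zfp870, with 30.1 and 25.3 (M-EPC) against 9.11 and 11.3 (OVX-EPC) and an adjusted p of 0.014 in limma, to -0.50 in Zfp930. Zfp366 had 44.1 and 47.0 (M-EPC) against 21.3 and 19.9 (OVX-EPC), with a log2 fold change of -1.11 ± 0.290 (SE; limma, adjusted p = 0.011). Zfp709 had 302 and 310 (M-EPC) against 203 and 220 (OVX-EPC), a log2 fold change of -0.53. Zfp318, known from the expression of IgD in B cells, had 74.1 and 66.9 (M-EPC) against 30.4 and 50.1 (OVX-EPC), a log2 fold change of -0.83. Zfp12 had 31.2 and 60.54 in M-EPC, so its M-EPC libraries differed among themselves, and 21.3 and 20.8 in OVX-EPC (log2 fold change -1.01). The others were Zfp827, a telomere-associated protein (log2 fold change -1.10), Zfp617 (-0.82), Zfp882 (-0.79), the pseudogene Zfp422-ps (-0.73), Zfp420 (-0.67), Zfp869 (-0.63) and Zfp825 (-0.51). Zfp366 and Zfp825 were called lower in both comparisons with M-EPC, which share the M-EPC libraries. With TMM factors, which moved the median of all autosomal genes from -0.14 to -0.03, 5 genes were called, 3 higher (Zfp804a, Zfp981 and also Zfp993) and 2 lower (Zfp366 and Zfp870). Blocking on replicate number gave 4 calls. The count was 3 without M-EPC replicate 1, 4 without OVX-EPC replicate 2 and 0 without OVX-EPC replicate 1.

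The higher genes were Zfp981, with 107 and 113 (M-EPC) against 171 and 160 (OVX-EPC), with a log2 fold change of 0.58 ± 0.187 (SE; limma, adjusted p = 0.045), and Zfp804a, the counterpart of a human schizophrenia risk gene, with 35.5 and 62.3 (M-EPC) against 75.9 and 96.5 (OVX-EPC), with a log2 fold change of 0.85 (limma, adjusted p = 0.017). Zfp981 was the 1 gene that DESeq2 called (adjusted p = 0.032), and it gave no adjusted p for 6 of the 15. The only region called was an intergenic one assigned to Zfp709 (chr8:71897542-71897941), with 46.2 and 61.4 (M-EPC) against 24.3 and 21.8 (OVX-EPC), with a log2 fold change of -1.18 ± 0.275 (SE; limma, adjusted p = 0.044). It was not called with TMM factors, in DESeq2, with the replicate block (limma, adjusted p = 0.054) or with any 1 library left out. The block called a Zfp993 region instead (chr4:146739719-146740118), which was higher in OVX-EPC (limma, adjusted p = 0.046). Regions of Zfp930 (log2 fold change -1.06), Zfp825 (-1.31), Zfp709 (chr8:71893519-71893918, -1.02) and Zfp74 (-1.28) came next among those lower. Among those higher the first were regions of Zfp993 (1.45), Zfp735 (1.19), Zfp804a (1.66), Zfp981 (1.24) and Zfp607b (1.15), and none was called. The median log2 fold change was -0.23 over the 593 Zfp regions and -0.17 over all autosomal regions tested, closer together than in F-EPC against M-EPC. When a signal of 30 or more was required in 2 libraries, the medians were -0.25 and -0.27. With no filter on low values they were -0.24 over 914 Zfp regions and -0.00324 over 57159 autosomal regions, so the gap varied with the filter.

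Clusters moved unequally. Summed over a cluster, signal was lower in OVX-EPC than in M-EPC in 22 of 25 clusters, 14 of them without overlap. The total over all autosomal regions changed by -0.0601 on the log2 scale, also without overlap of the groups. The median log2 ratio of the 25 clusters was -0.26. Region by region, the median over all autosomal regions with at least 30 in at least 2 libraries was -0.27. These medians were close, although the first is of summed signal and the second of single regions. For single regions with a mean signal of 30 to 60 the medians were -0.23 (Zfp) and -0.27 (other). At 60 or more they were -0.27 and -0.07. The lowest log2 ratio was -0.60 in the chromosome 8 cluster led by Zfp709, with 524 and 489 (M-EPC) against 315 and 354 (OVX-EPC). The chromosome 8 cluster led by Zfp930 followed with -0.51, and the chromosome 7 cluster led by Zfp146 with -0.45. The chromosome 4 cluster led by Zfp988, which holds Zfp981 and Zfp993, was higher, with 689 and 712 (M-EPC) against 863 and 921 (OVX-EPC), a log2 ratio of 0.35. It was the only cluster higher without overlap. Between F-EPC and M-EPC, 5 of 6 clusters were lower, with a median log2 ratio of -0.53 over the 6. The total over all regions with F-EPC reads changed by -0.0794, also without overlap. The median over single regions with at least 30 in at least 2 libraries was -0.40. The log2 ratio was -0.64 in the chromosome 13 cluster led by Zfp712, with 1643 and 1539 (M-EPC) against 1049 and 993 (F-EPC), compared with -0.24 for OVX-EPC over the same 73 regions. The chromosome 11 cluster led by Zfp2 was the exception, at 0.12, with 125 and 133 (M-EPC) against 137 and 144 (F-EPC). Between OVX-EPC and F-EPC 5 of 6 clusters were higher, 4 of them without overlap. The total over all regions changed by 0.024, also without overlap. No cluster can pass 0.05 in an exact permutation test of 2 libraries against 2, and all clusters without overlap have p = 0.3333.

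**Figure D5:**
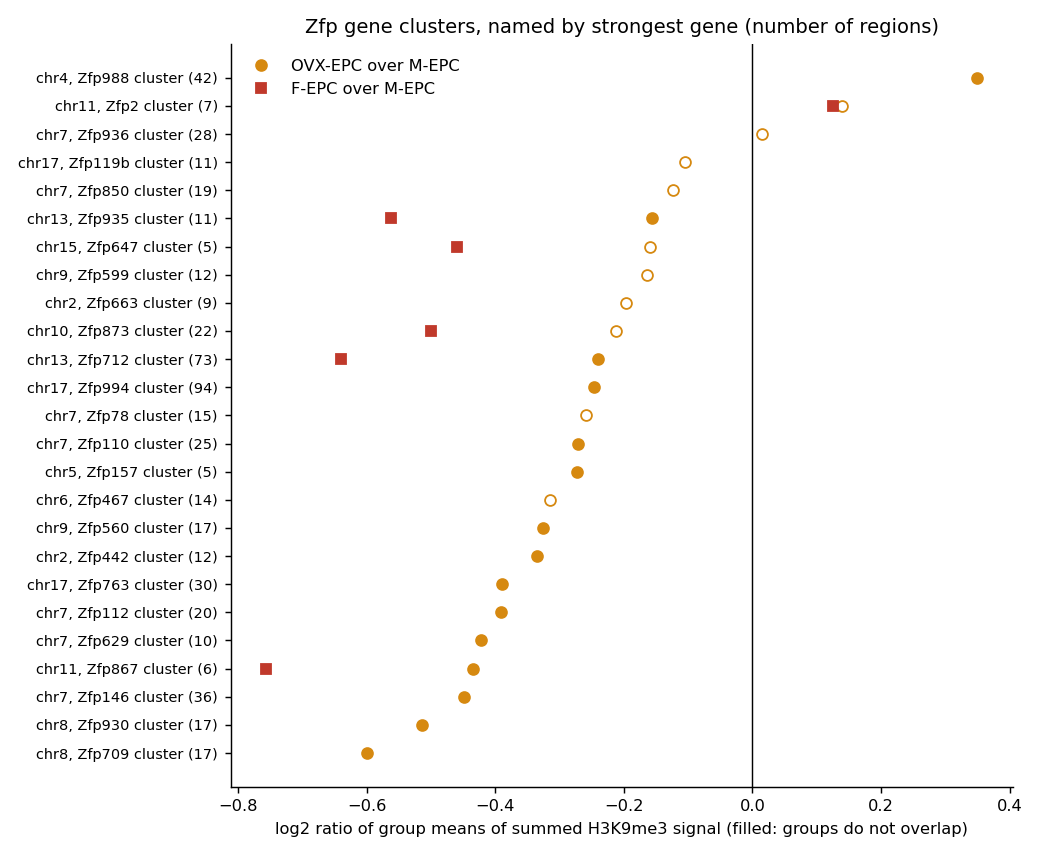
Log2 ratio of group means of H3K9me3 signal summed over each of 25 Zfp clusters, OVX-EPC over M-EPC (circles) and, for the 6 clusters with F-EPC reads, F-EPC over M-EPC (squares); filled symbols mark groups that do not overlap. Circles run from -0.60 to 0.35, and 5 of the 6 squares lie below 0.

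OVX-EPC were set against F-EPC to ask for a difference after ovariectomy. None (0) of the 143 Zfp regions and 0 of the 59 Zfp genes tested was called by limma, and edgeR and DESeq2 also called 0, where limma called 0.0127% of all regions and 0.0188% of all genes. At an unadjusted p under 0.05, 16 regions were higher in OVX-EPC (11.2%) and 1 lower, against 3.49% of all regions higher. Likewise 13 genes were higher (22.0%) and 0 lower, against 4.71% of all genes higher. Zfp759 had the smallest p, with 83.8 and 77.5 (F-EPC) against 117 and 129 (OVX-EPC), with a log2 fold change of 0.60 (limma, adjusted p = 0.25). Zfp273 had 40.7 and 28.003 (F-EPC) against 61.4 and 57.1 (OVX-EPC), with a log2 fold change of 0.79 (limma, adjusted p = 0.27). The regions with the smallest unadjusted p were those of Zfp873 (chr10:82003404-82003803, log2 fold change 1.18) and Zfp729a (chr13:67628330-67628729, 0.91), and a Zfp369 exon region (chr13:65303500-65303899, 0.80). Regions of Zfp935 (0.90) and Zfp729b (0.75) came next. Among regions lower in OVX-EPC, those of Zfp706 (log2 fold change -0.86 and -0.52), Zfp938 (-0.63), Zfp493 (-0.82) and Zfp454 (-0.47) had the smallest p. The median log2 fold change was 0.25 over Zfp regions and 0.03 over all regions tested, and it ran from 0.18 to 0.35 with 1 library left out.

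Genes of the pathway that KRAB zinc finger proteins work through were also examined, on a list of 26 genes that includes Trim28, Setdb1, HP1 proteins, the HUSH complex and H3K9 demethylases. Of these, 18 had regions and 14 passed the filter in OVX-EPC against M-EPC, where 2.29% of all autosomal genes tested were called lower and 2.36% higher. Lower in OVX-EPC were 2, the histone H3.3 chaperone Daxx, with 41 and 36 reads (M-EPC) against 16 and 22 (OVX-EPC), with a log2 fold change of -1.01 (limma, adjusted p = 0.033), and the maintenance DNA methyltransferase Dnmt1, with 21 and 27 reads against 9 and 11 (log2 fold change -1.19; limma, adjusted p = 0.046). Neither was called with TMM factors (limma, adjusted p = 0.075 and 0.083). Trim28 held 22 and 31 reads (M-EPC) against 21 and 24 (OVX-EPC), with a log2 fold change of -0.22 (limma, adjusted p = 0.73). Setdb1 held 22 and 19 reads (M-EPC) against 17 and 23 (OVX-EPC), with a log2 fold change of -0.06 (limma, adjusted p = 0.95). In F-EPC against M-EPC 5 of the 7 genes with regions were tested and 0 were called.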

How the data were processed

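H3K9me3 was measured by CUT&Tag in 6 libraries, 2 for each group. Per the submitters' processing notes the authors used mm10, BWA and MACS2, while the study's methods name Bowtie2, with reads trimmed to 25 bases, duplicates and reads of low mapping quality removed, HOMER and ChIPseeker. The 3 deposited tables hold a signal per region and library, in which each library of a table has whole reads scaled by 1 common factor. For 100% of values the reads came out whole within 0.1. Columns of the authors' own comparisons (fold changes, p-values and trend) were not used.

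Zfp regions were compared in limma 3.58.1 (R 4.3.3), its trend option set, on log2(value + 1), for regions, and genes as sums of their regions, with at least 10 in at least 2 of 4 libraries. Adjustment (Benjamini-Hochberg) was over all regions or genes of a table, with F-EPC on its covered part, and a call was an adjusted p under 0.05. This scale understates changes of weak regions. The recovered counts were tested in edgeR 4.0.16 and DESeq2 1.42.0 as alternatives, along with other pseudocounts, filters, TMM factors, the replicate block and each library left out. All scripts that fit models were tested on simulated data. Clusters join Zfp regions with gaps of at most 1 Mb and at least 3 genes. Motifs and coding exons came from GRCm38 and GENCODE M21. Named are all called regions and genes, the 5 of smallest p in each direction without overlap, the 10 strongest regions and genes, the strongest gene of each cluster and 4 genes of known role. The members, lists and tests were chosen with earlier results of these data known. Reads per region are few, so single regions are imprecise.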

Additional observations from a re-analysis of the deposited data

Results flagged for a closer look

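F-EPC replicate 2 held reads past the last read of F-EPC replicate 1, up to chromosome 3, and no comparison used them. There, 271 Zfp regions of 72 genes held 4335 reads of F-EPC replicate 2, which was 2.74% of its 158083 autosomal region reads in that stretch. Over the same regions the share was 3.79% and 3.62% (M-EPC) and 3.12% and 3.32% (OVX-EPC). The difference was not tested.

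The 17 Zfp regions on chromosome X, of 8 genes, lay outside the comparisons as well. They held 322 and 356 reads (M-EPC) and 311 and 402 reads (OVX-EPC), so the groups overlapped, and F-EPC had no reads there.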

How the results depend on the processing

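Direction was kept in each alternative for the Zfp share and the median fold change of Zfp regions in all 3 comparisons, while counts of calls moved. In OVX-EPC against M-EPC, 1 region was called, and the count was 0 with a pseudocount of 0.1, with TMM factors, in DESeq2 and on the chromosomes with F-EPC reads only, 2 with no filter on low values and in edgeR, 8 with at least 30 in at least 2 libraries and 0 to 0 with each library left out. The 15 genes became 5 with TMM factors, 7 in edgeR, 1 in DESeq2 and 4 with the replicate block, and 0 to 17 with each library left out. In F-EPC against M-EPC the 9 regions became 0 in DESeq2 and 0 to 8 with each library left out, and the 19 genes 10 with TMM factors, 12 in edgeR, 2 in DESeq2 and 0 to 24 with each library left out. Taking absent F-EPC reads as 0 over all deposited regions gave 287 calls for F-EPC against M-EPC. The same step gave 264 when OVX-EPC was set against F-EPC, in both cases by construction. The F-EPC median ran from -0.62 to -0.42 and the median of OVX-EPC against F-EPC from 0.18 to 0.35 with each library left out. With gaps of at most 0.5 Mb, 3 of 4 clusters were lower in F-EPC instead of 5 of 6. The cause of the other moves was not tested. Deviations of same-numbered libraries correlated at -0.00286, -0.103 and -0.0259, so the numbers do not pair libraries, and the block called 1 other region, higher in OVX-EPC than in M-EPC, in place of the 1 lower. It gave 8 regions and 14 genes in F-EPC against M-EPC and 0 of either in OVX-EPC against F-EPC. With crossed numbers, added after seeing the data, F-EPC against M-EPC gave 30 regions and 24 genes. In data simulated at these depths (dispersion 0.02), limma called few of the 2-fold changes. It called 12 of 100 such regions in OVX-EPC against M-EPC, 28 in F-EPC against M-EPC and 45 in OVX-EPC against F-EPC. Of 100 such genes it called 33, 38 and 42. Of 100 regions changed 4-fold it called 74, 80 and 78. Most of these 2-fold changes were thus missed. The share found among Zfp regions or genes alone was not tested. A lack of calls does not show unchanged signal.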
